A study of Mus musculus with 6 samples.

Results

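Plasmacytoid dendritic cell (pDC) nuclei were a rare class in the livers of DIAMOND mice, making up 205 of the 39012 nuclei kept from 6 droplet libraries (0.525%). A nucleus was taken as a member when it carried at least 1 UMI (a counted RNA molecule) of Siglech, a surface lectin of pDCs, at least 1 further gene of Ccr9, Klk1, Cox6a2, Pacsin1, Bst2 and Tcf4, and no more than 1 UMI in sum of Stab2, Ptprb, Skap1, Pax5, Clec4f and Reln, which mark endothelial, T, B, Kupffer and stellate cells. These counts therefore chose the members, and the levels of the rule's genes are given as a description. The mice were males of a cross labelled 129A1/SvIm and C57BL/6J, and each group held 2 mice with 1 liver library each. Diets began at 2 months of age. Ctrl mice ate chow for 40 weeks, Pre-T mice were given a Western diet (high-fat food with sugar water) over the same 40 weeks, and the Western diet of the Post-T mice lasted 48 weeks. The Post-T libraries are titled as tumor and sourced as liver in the labels, so how much tumor the sampled pieces held is not known, and time on the diet and tumor cannot be told apart. No Ctrl or Pre-T mouse was kept for 48 weeks, so the Post-T mice were also older. Age cannot be told apart from time on the diet and tumor in Post-T against Ctrl or against Pre-T.

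Plasmacytoid dendritic cells detect viral and self nucleic acids through endosomal Toll-like receptors and are known as the main source of type I interferon. Their identity depends on the transcription factor Tcf4 together with Irf8, Spib, Runx2 and Bcl11a, while conventional dendritic cells are marked by Zbtb46 and specialise in antigen presentation. Both lineages depend on Flt3 signalling. In the liver pDCs arrive from the blood and are few. The libraries were made from nuclei of frozen tissue, so they hold mainly nuclear RNA.

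The members carried 516762 UMIs in all, with a median of 2065 per nucleus (lowest 532, highest 14577). Lists of 6 values give the Ctrl pair, then the Pre-T pair, then the Post-T pair, with replicate 1 first in each. The 6 mice gave 44, 28, 39, 69, 14 and 11 members. Their summed member UMIs were 114215, 73187, 107438, 145921, 53921 and 22080, so the Post-T group was the shallowest. No member barcode was shared between libraries. The whole libraries held 22453658 to 40307564 UMIs.

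The label was checked with Irf8, Runx2 and Bcl11a, 3 regulators of pDCs that the rule did not use (chosen after their values were seen). At least 2 of them were detected in 155 of 205 members (75.6%) and all 3 in 134, while 37 members had none, and among the other kept nuclei 3.09% had at least 2. In the comparison classes, chosen by their own markers, at least 2 were detected in 37.5% of 96 conventional dendritic cell nuclei, 18.7% of monocyte, 18.2% of B cell and 1.97% of hepatocyte nuclei, so these 3 genes do not by themselves separate pDCs from conventional dendritic cells. Members with 5 or more Siglech UMIs numbered 85 and all carried at least 2 regulators. Of the 53 members with 2 to 4 Siglech UMIs, 94.3% did, but of the 67 members with a single Siglech UMI only 29.9% did. The members just inside the rule, with 1 Siglech UMI and 1 other marker (47 nuclei), had at least 2 regulators in 19.1%, and the nuclei just outside it, with Siglech but no other marker (35 nuclei), in 8.57%. On the other edge, members with 1 UMI of the 6 excluded genes (52 nuclei) had at least 2 regulators in 67.3%, close to the 66.7% of the 21 nuclei left out for 2 such UMIs. On these genes most members fit the label, while many of those with 1 Siglech UMI do not. The shares below are also given for members with at least 2 regulators, while the fits of genes hold all members.

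**Figure D1:**
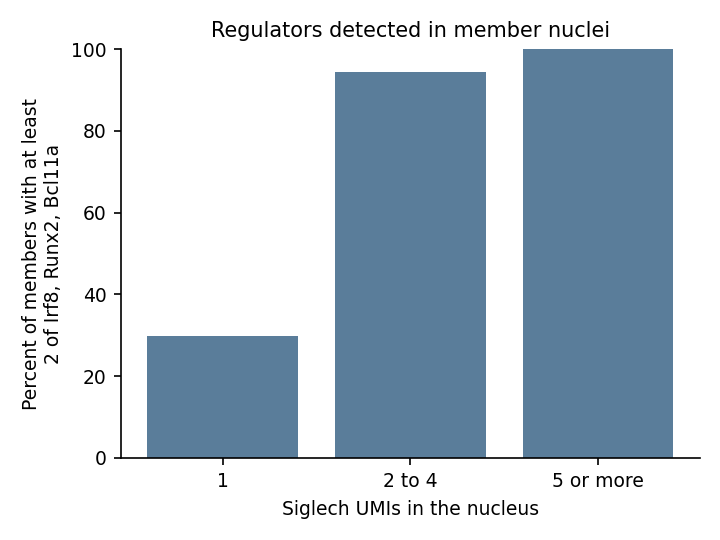
Members by their number of Siglech UMIs (1, 2 to 4, or 5 or more), with bars giving the percent of members of the 6 mice that carried at least 2 of Irf8, Runx2 and Bcl11a. The bar at 1 Siglech UMI stands at 29.9% of 67 nuclei, against 94.3% of 53 and 100% of 85.

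One library stood apart. In Post-T 1 the median member had 1 Siglech UMI, against 2 to 5 in the other 5 mice, and 8 of its 14 members (57.1%) had at least 2 regulators, against 69.6% to 90.9% of members in the other mice. The members with at least 2 regulators gave 25.5% of the member UMIs of Post-T 1 and 63.5 to 95.2% in the other mice. The main results that rest on Post-T are therefore also given without Post-T 1. In Pre-T 2, a single member nucleus held 2411 of the 2602 UMIs from the 6 erythroid genes (globins, Alas2 and Slc4a1) while carrying 1 Siglech UMI and no regulator.

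The pDC share of all kept nuclei was highest in Pre-T and lowest in Post-T, and the 3 groups did not overlap. It was 0.608% (95% exact binomial interval 0.442 to 0.816) in Ctrl 1 and 0.360% (0.240 to 0.520) in Ctrl 2, 0.721% (0.513 to 0.985) in Pre-T 1 and 0.879% (0.685 to 1.11) in Pre-T 2, and 0.258% (0.141 to 0.432) in Post-T 1 and 0.207% (0.103 to 0.369) in Post-T 2. These intervals hold counting error alone. The mean share was 0.800% ± 0.112 for Pre-T mice, 0.484% ± 0.176 for Ctrl mice and 0.232% ± 0.0361 for Post-T mice (SD, n = 2 each). Pre-T lay 0.316 percentage points above Ctrl (1.65 times), Post-T lay 0.252 points below Ctrl, and Post-T lay 0.568 points below Pre-T. The exact two-sided permutation test gave p = 0.33 for each of these pairs, the smallest that 6 splits of 2 against 2 mice allow. Across both Western diet groups together the share was 0.0319 points above Ctrl (exact permutation p = 0.933, n = 4 and 2), with the Ctrl values inside the range of the others. In a liver sample, fewer pDCs cannot be told apart from more nuclei of other cells.

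Counting only members with at least 2 regulators kept the order of the groups. Those shares were 0.456% and 0.270% in Ctrl, 0.647% and 0.612% in Pre-T, and 0.147% and 0.188% in Post-T (0.363% ± 0.132, 0.630% ± 0.0251 and 0.168% ± 0.0287, SD, n = 2 each). Without Post-T 1, Post-T 2 alone still lay below every Ctrl and Pre-T mouse. Set against nuclei with a UMI of Ptprc, the pan-leukocyte CD45 gene, the order changed, as these nuclei numbered 1081 and 1083 in Ctrl, 2094 and 3098 in Pre-T, and 1472 and 751 in Post-T. The share of Ptprc nuclei that were pDC members was 2.87% and 1.66% in Ctrl, 1.58% and 1.74% in Pre-T, and 0.747% and 1.07% in Post-T. On this scale Pre-T lay 0.605 points below Ctrl with overlapping mice (exact permutation p = 0.667), and Post-T remained lowest.

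**Figure D2:**
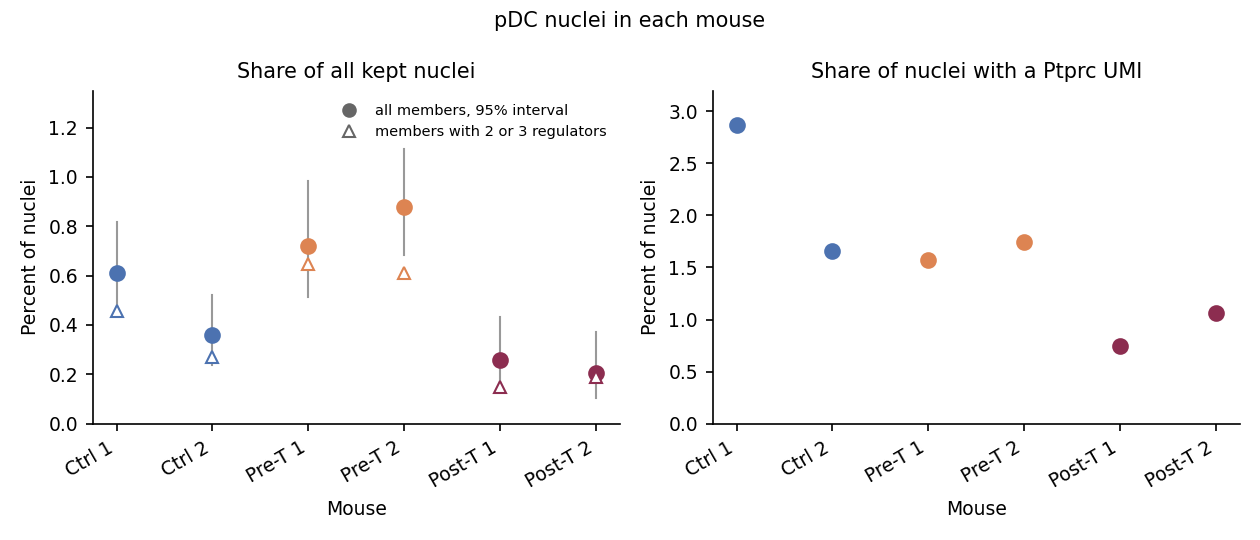
Percent of kept nuclei (left) and of Ptprc nuclei (right) that were pDC members in each of the 6 mice; circles are all members, bars the 95% exact binomial interval, and open triangles members with at least 2 of Irf8, Runx2 and Bcl11a. On the left the Pre-T mice sit at 0.721% and 0.879% and the Post-T mice at 0.258% and 0.207%, whereas on the right the Pre-T mice at 1.58% and 1.74% lie near Ctrl 2 at 1.66%.

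Beyond the rule, the members as a pool had a transcript profile that set them apart from the rest of the liver. Among the 25 genes listed below, detection ran from 10.2% of members (Gm34680) to 77.6% (Runx2). Levels are UMIs of a gene per 1000000 UMIs (CPM) summed over nuclei, and a ratio compares members with all other kept nuclei, pooled over the 6 mice. Since the members were picked from the same counts, no test was made of these ratios. Among 4447 genes detected in at least 10% of members and in members of at least 4 mice, 107 were over 10-fold and 11 over 100-fold higher in members. The 25 with the highest ratios ran from 689-fold for Gm12253 to 48.0-fold for Gm12064. They included transcription factors (Spib, Runx2, Bcl11a and Irf8), surface receptors (Cd300c, an Ig-like receptor, Cd209d and Clec10a, C-type lectins, Lrp8, a lipoprotein receptor, and Havcr1, also called TIM-1), a voltage-gated calcium channel subunit (Cacna1e), a ribonuclease (Rnase6), an adaptor that dampens antigen receptor signalling (Sla2) and the template-independent polymerase Dntt. The others were Olfr164, Eldr, Pdzd4, Paqr5, Spns3, Smim5, Gm34680, Ak8, F630206G17Rik and Ppm1e.

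Runx2, which governs the exit of pDCs from bone marrow, reached 2881, 3225, 4672, 3351, 1391 and 4121 CPM in the members of the 6 mice. It was lowest in Post-T 1, with the other mice between 2881 and 4672 CPM. Pooled, it stood at 3332 CPM in members, 516 in conventional dendritic cell nuclei, 224 in T cell nuclei and 42.6 in hepatocyte nuclei. A Runx2 UMI was present in 77.6% of members and 9.34% of hepatocyte nuclei, which should lack it, and after thinning every nucleus to 500 UMIs in 70.2% and 2.54%. Median depths per mouse were 1682 to 2195 UMIs in members and 1291.5 to 3552 in hepatocyte nuclei.

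Irf8, needed for pDC and type 1 conventional dendritic cell function, stood at 1664, 1612, 2122, 1432, 668 and 1857 CPM in the 6 mice. The Post-T 1 value was again the lowest, with the other mice between 1432 and 2122 CPM. Pooled Irf8 was 1591 CPM in members, 716 in conventional dendritic cell nuclei and 135 in B cell nuclei. Bcl11a, a zinc finger protein of lymphoid and pDC development, varied less, with 1357, 1489, 1908, 1501, 1224 and 1857 CPM, and was also high in B cell nuclei (703 CPM) and conventional dendritic cell nuclei (547 CPM). Spib, an Ets factor that protects pDCs from death, was sparse, with 3, 10, 15, 5, 0 and 0 UMIs. Its 33 UMIs lay in 11.2% of members, against 0.124% of hepatocyte nuclei.

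Cacna1e was detected in 65.9% of members and 0.699% of hepatocyte nuclei. It measured 1558, 1872, 1908, 1261, 575 and 2129 CPM in the members of the 6 mice, and 354 and 221 CPM in pooled B cell and conventional dendritic cell nuclei. Cd300c gave 193, 219, 363, 281, 74.2 and 408 CPM, was present in 42.0% of members against 0.0865% of hepatocyte nuclei, and had no UMI in the B cell, T cell and monocyte nuclei. Outside the 25, the metabotropic glutamate receptor Grm8 was 28.6-fold higher in members than in other nuclei, with 2101, 2828, 3267, 2330, 575 and 3080 CPM. The calcium-binding membrane protein Mctp2 was 14.3-fold higher, with 1856, 2077, 3351, 2378, 556 and 2582 CPM. Both genes, like Cacna1e, fell in 1 range in 5 mice and lower in Post-T 1.

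**Figure D3:**
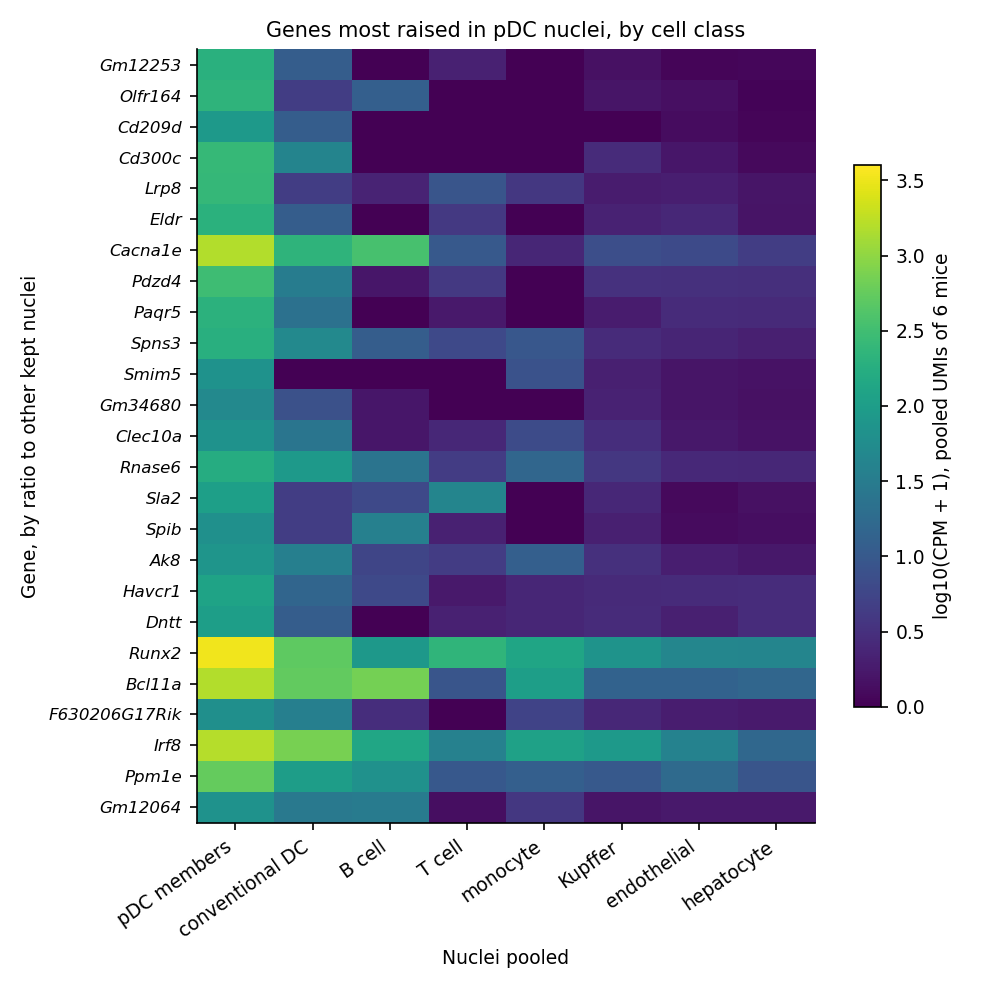
The 25 genes with the highest ratio of member CPM to CPM in other kept nuclei (rows) in members and 7 comparison classes (columns), coloured by log10(CPM + 1) of UMIs pooled over 6 mice. Runx2, Irf8, Bcl11a and Cacna1e are the brightest in members at 1513 to 3332 CPM, and conventional dendritic cell nuclei share Irf8 at 716 CPM and B cell nuclei share Bcl11a at 703 CPM.

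The upstream sequences of 3 genes are printed because Siglech and Ccr9 define the members and Cd300c was 399-fold higher in them. They are from RefSeq on GRCm38.p6, run 5′ to 3′ on the gene's strand and end before the first exon base that GENCODE annotates in the window. The Siglech window lies directly before the gene's first annotated base, while those of Ccr9 and Cd300c lie before RefSeq starts inside longer GENCODE genes (chr9:123678439-123784330 and chr11:114956116-114969157), which also have starts farther upstream. Capitals mark CACCTG, an E-box form bound by proteins of the Tcf4 family, and TGTGGT, the core bound by Runx proteins, on either strand (CAGGTG and ACCACA on the other).
Siglech, chr7:55767934-55768177, plus strand: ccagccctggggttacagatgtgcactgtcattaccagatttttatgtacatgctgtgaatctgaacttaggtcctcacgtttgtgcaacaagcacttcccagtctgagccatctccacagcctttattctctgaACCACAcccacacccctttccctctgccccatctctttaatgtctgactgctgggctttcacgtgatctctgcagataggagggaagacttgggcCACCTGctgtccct
Ccr9, chr9:123766961-123767168, plus strand: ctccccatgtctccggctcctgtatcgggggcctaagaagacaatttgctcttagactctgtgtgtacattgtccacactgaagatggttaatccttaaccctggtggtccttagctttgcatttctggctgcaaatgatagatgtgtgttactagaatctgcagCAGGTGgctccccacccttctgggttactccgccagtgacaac
Cd300c, chr11:114960508-114960757, minus strand: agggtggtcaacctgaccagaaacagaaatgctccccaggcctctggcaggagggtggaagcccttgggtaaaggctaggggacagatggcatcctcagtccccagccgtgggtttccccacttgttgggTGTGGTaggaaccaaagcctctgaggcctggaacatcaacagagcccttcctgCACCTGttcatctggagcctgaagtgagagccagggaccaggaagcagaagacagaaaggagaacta

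The Siglech and Cd300c sequences held 2 matches each and the Ccr9 sequence 1. Windows of other genes were also read but are not printed. That of Olfr164, 489-fold higher in members, held 1 match (CACCTG). Those of St8sia1, Runx2, Bcl11a and Spib held 0 matches before the first exon base, and that of Cacna1e left 0 bases. The Runx2 window was cut to 80 bases in this way. The counts that follow use whole windows of 250 bases, exon bases included, and there Runx2 is among the genes with TGTGGT. Among all 32851 RefSeq promoters of the table, CACCTG was found on either strand in 17.2%, TGTGGT in 14.0%, the palindromic E-box CAGCTG in 13% and the Ets-Irf composite element (EICE) in 2.30%. Of the 25 genes above, 20 had an entry, with 27 promoters in all. CACCTG was in 7 of these (25.9%), TGTGGT in 5 (18.5%), CAGCTG in 3 (11.1%) and the EICE in 2 (7.41%). A match describes letters in these windows and not a bound site.

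The nucleic acid sensing genes of pDCs were present at low counts, and no interferon gene was seen. Tlr7, the endosomal receptor of single-stranded RNA, gave 13, 5, 29, 27, 5 and 6 UMIs in the 6 mice (114, 68.3, 270, 185, 92.7 and 272 CPM) and was detected in 25.4% of members and 2.40% of hepatocyte nuclei. Tlr9, the receptor of unmethylated DNA, had 1 UMI. Unc93b1, the chaperone that carries both receptors to endosomes, was at 254, 205, 475, 521, 167 and 453 CPM. The Pre-T mice were above both Ctrl mice for Tlr7 and Unc93b1, and the Post-T mice were spread from low to high. None of 17 interferon ligand genes (Ifnb1, 13 Ifna genes, Ifnl2, Ifnl3 and Ifng) had a UMI in the 205 members, which allows a share of up to 1.46% of nuclei with a UMI (counting error over pooled mice only). At this depth that does not limit the share of cells that express one. In the other kept nuclei the 24 interferon UMIs were all of Ifng. The receptor chains were detected, with 217 UMIs of Ifnar2 (53.7% of members, 24.1% of hepatocyte nuclei) and 71 of Ifnar1. Irf7, the factor that amplifies interferon production, had 5, 1, 11, 10, 0 and 1 UMIs.

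Of the 21 antigen presentation genes, 20 had a lower pooled level in members than in conventional dendritic cell nuclei and 1, H2-K1, a higher one, and they summed to 2425 CPM in members and 6945 CPM in conventional dendritic cell nuclei. Ciita, the master activator of MHC class II genes, stood at 73.5 CPM in members, 810 in conventional dendritic cell nuclei and 177 in B cell nuclei. Cd74, the class II invariant chain, was at 263, 1218 and 602 CPM in the same 3 classes. Of the genes of dendritic cell identity, Zbtb46 was at 27.1 CPM in members, below the 54.6 CPM of all other nuclei, and at 633 CPM in conventional dendritic cell nuclei. Flt3, the receptor of the cytokine that supports both lineages, was at 108 CPM in members and 685 in conventional dendritic cell nuclei. That class was chosen by Flt3 with further conventional dendritic cell markers, so high levels of such markers there follow in part from the choice. These values are pooled over mice and were not tested.

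Of the signalling genes, Blnk, an adaptor below the B cell receptor, was near its level in B cell nuclei. Its level was 364 CPM in members, 403 in B cell nuclei and 24.2 in conventional dendritic cell nuclei. Syk, the kinase that binds phosphorylated ITAM motifs, was at 435 CPM in members, and Plcg2, a phospholipase it activates, at 242 CPM. The summed level of the 14 ITAM genes was 4492, 4632, 6841, 5297, 5508 and 7473 CPM in members and 740 to 2277 CPM in the other nuclei of the 6 mice. Among genes for traffic, Ccr2, a chemokine receptor of blood-derived cells, had 63 member UMIs, while Cxcr3 had 3, Cxcr4 2 and Ccr7 none. Among cytokine receptors, Csf2rb2, a beta chain for interleukin 3, was 31.2-fold higher in members than in other nuclei, with 10, 6, 20, 28, 1 and 1 UMIs. Genes of the endoplasmic reticulum, a compartment that pDCs are known to expand for secretion, summed to 2059 to 3749 CPM in members and 2287 to 3698 CPM in other nuclei.

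**Figure D4:**
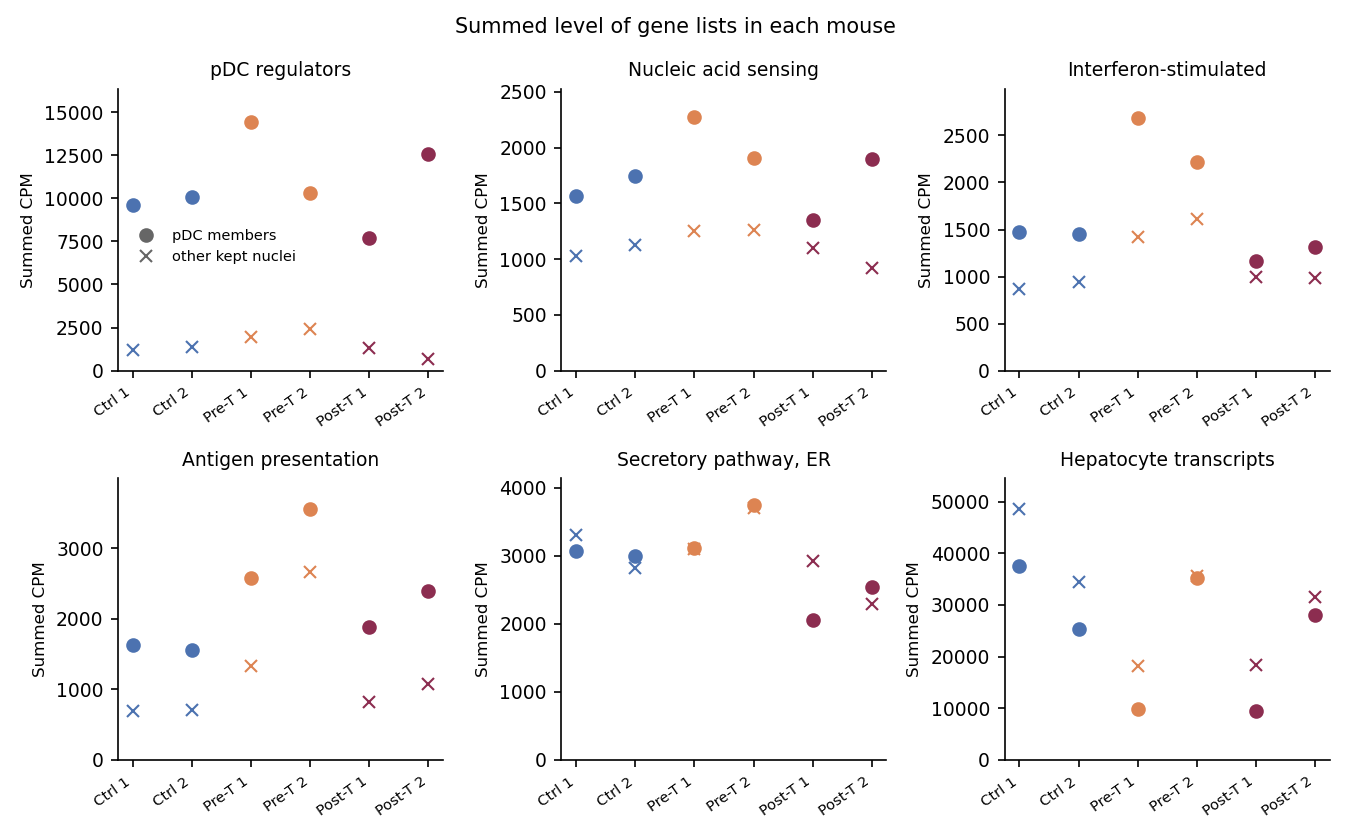
Summed CPM of 6 gene lists in each of the 6 mice, with circles for pDC members and crosses for all other kept nuclei. Regulators are far higher in members (7715 to 14436 CPM) than in other nuclei (664 to 2433 CPM), antigen presentation is highest in the Pre-T mice in both kinds of nuclei, and hepatocyte transcripts in members range from 9384 to 37640 CPM.

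Transcripts of hepatocytes were the largest foreign signal. The 20 hepatocyte genes summed to 37640, 25373, 9941, 35286, 9384 and 28125 CPM in members and 48536, 34545, 18128, 35646, 18444 and 31501 CPM in other nuclei, so the members were low where their library was low. All 20 had UMIs in members. Of the 13 Kupffer cell genes, all had member UMIs, with sums of 90.6 to 1405 CPM, and the highest was in Pre-T 2. Of 13 T cell genes, 9 had member UMIs, with sums of 43.8 to 148 CPM, and Cd3e, Cd3d, Trbc2 and Bcl11b were at 0. Of 9 plasma cell genes, 5 had member UMIs, with sums of 74.2 to 149 CPM, and Jchain, Tnfrsf17, Ighg1 and Igha were at 0. The 9 NK cell genes were at 0 but for 1. The endothelial list summed to 334 to 815 CPM in members, the B cell list to 615 to 860 CPM, the monocyte list to 649 to 1175 CPM, the stellate list to 0 to 302 CPM and the neutrophil list to 0 to 148 CPM. The conventional dendritic cell list, which shares genes with pDCs, summed to 1199 to 1766 CPM with Xcr1 at 0, and the cycling list to 0 to 41.1 CPM. The erythroid genes summed to 17832 CPM in Pre-T 2, or 1339 CPM without the 1 nucleus named above, and to 68.3 to 1743 CPM in the other mice. In Post-T 1, 48 of the 71 UMIs from cholangiocyte genes came from 1 nucleus, as did 48 of 50 in Ctrl 2. No doublet caller was run, and the part of doublets and free RNA in the results was not tested.

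The question of the group comparisons was which genes differed within pDC nuclei before and after tumors appeared. UMIs of the members were summed per mouse and tested with edgeR across 11852 genes. Genes with an adjusted p under 0.05 numbered 83 in Pre-T against Ctrl, or 0.7% of those tested (24 higher, 0.202%, and 59 lower, 0.498%). In Post-T against Ctrl they numbered 211, or 1.78% (75 higher, 0.633%, and 136 lower, 1.15%). In Post-T against Pre-T they numbered 64, or 0.54% (32 higher and 32 lower, 0.27% each), and with RLE in place of TMM factors the split was 64.5% higher in place of 50%. Both Western diet groups together differed from Ctrl in 204 genes, or 1.72% (38 higher, 0.321%, and 166 lower, 1.4%). The counts from DESeq2 were 13, 40, 0 and 44. The split was not stable. In Pre-T against Ctrl it was 8 higher and 4 lower without Pre-T 1, and 10 and 96 in members with at least 2 Siglech UMIs. In Post-T against Ctrl it was 11 and 95 without Post-T 1, and 11 and 68 in members with at least 2 Siglech UMIs. For Post-T against Pre-T, 904 genes had an unadjusted p under 0.05 with edgeR and 171 with DESeq2. Without Post-T 1, edgeR called 220, 106, 24 and 248 genes. These comparisons share mice, so their calls are not independent of each other.

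Few of the genes that characterise pDCs were called, and so few of all genes were that these counts are near the background. Of the 107 genes over 10-fold higher in members, 0 were called in Pre-T against Ctrl (0.7% of all genes), 1 in Post-T against Ctrl (Dlg2, against 1.78%), 2 in Post-T against Pre-T (Olfr164 and St8sia1, against 0.54%) and 0 in both diet groups against Ctrl (against 1.72%). With numbers this small, neither a lower nor a higher share among the 107 can be read from them. The 107 were picked on UMIs pooled over the mice, of which Post-T gave 76001 of 516762. A gene low in Post-T could thus enter the list more readily than a gene low in Ctrl or Pre-T. Lower values of these genes in Post-T may follow in part from that choice, so their calls and medians are a description. DESeq2 called none of them. Without Post-T 1, edgeR called Sla2 in Pre-T against Ctrl and Olfr164 in Post-T against Pre-T, both lower. The median log2 fold change of the 107 was 0.33, −0.63, −0.91 and −0.20 in the 4 comparisons, beside 0.18, −0.29, −0.49 and −0.15 for all genes tested. With genes at 0 in 1 group set to the bound that 3 UMIs allow, the medians were 0.33, −0.58, −0.89 and −0.20 for the 107 and 0.13, 0.00, −0.08 and −0.17 for all genes. Without Post-T 1 the fitted medians of the 107 were 0.24, −0.05, −0.19 and 0.06, so the lower level in Post-T nearly vanished, while those of all genes were 0.10, −2.16, −1.98 and −0.75. In that fit Post-T 2 stood alone with 22080 UMIs, and 54.5% of genes were at 0 in 1 group in Post-T against Ctrl. With the bound its medians were 0.24, 0.00, −0.06 and 0.06 for the 107 and 0.06, 0.00, 0.00 and −0.80 for all genes. Scaled by the RLE factors of DESeq2 in place of TMM, the median of all genes moved to 0.07, −0.19, −0.28 and −0.15, and that of the 107 to 0.21, −0.51, −0.69 and −0.21.

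Olfr164, an olfactory receptor gene that was 489-fold higher in members than in other nuclei, fell in Post-T against Pre-T. Its UMIs were 19, 9, 49, 36, 1 and 0 (166, 123, 456, 247, 18.5 and 0 CPM), so both Post-T mice lay below all others. The pooled ratio of Pre-T to Post-T was 25.5 (95% exact counting interval 4.45 to 1019), and the edgeR adjusted p was 0.000693, below 0.05 in each of 6 fits that left out 1 mouse (up to 0.0478). Where such a fit, here and below, leaves 1 Post-T library, its spread is taken from the other groups and the lone library is assumed to vary like them. For Olfr164 DESeq2 gave an adjusted p of 1. St8sia1, the sialyltransferase that makes the ganglioside GD3, had 10, 6, 23, 18, 0 and 0 UMIs, at least 4.10-fold lower in Post-T than in Pre-T (floor of 3 UMIs over the group, edgeR adjusted p = 0.0119). With Post-T 2 alone the bound falls to 1.19-fold. Its edgeR adjusted p was 0.412 without Post-T 1, 0.152 without Pre-T 1 and 0.0654 without Pre-T 2, and 1 with DESeq2. All UMIs of Olfr164 and St8sia1 lay in members with at least 2 regulators. Dlg2, a scaffold of the MAGUK family, had 34, 11, 23, 18, 1 and 1 UMIs and fell in Post-T against Ctrl (pooled ratio 9.12, 95% exact counting interval 2.38 to 77.7, edgeR adjusted p = 0.0278). That p was 0.392 without Post-T 1, 0.055 without Pre-T 1, and 0.644 or 0.0528 when the first or second Ctrl mouse was left out in edgeR. For these 3 genes the Post-T values rest on 1, 0 and 2 UMIs. On GRCm38, Olfr164 lies at chr16:19284104-19314064 (minus strand), St8sia1 at chr6:142821545-142964452 (minus strand) and Dlg2 at chr7:90476672-92449247 (plus strand), each from the first to the last annotated base of the gene.

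Across the pathway lists, 3 genes were called in the 4 comparisons, in which 0.54 to 1.78% of all genes tested were, so few calls are near that background. None of the 12 regulators, 23 surface and secreted genes, 17 sensing genes, 4 interferon receptor genes, 24 interferon-stimulated genes, 19 antigen presentation genes, 12 migration genes and 16 cytokine receptor genes tested passed in any of them. List genes called in the test of the difference between members and other nuclei are given further below. Herpud1, a stress-induced gene of protein degradation at the endoplasmic reticulum, fell in Post-T against Ctrl, with 20, 21, 23, 23, 1 and 1 UMIs (pooled ratio 8.31, 95% exact counting interval 2.16 to 71.0, edgeR adjusted p = 0.0326). Fkbp5, a chaperone induced by glucocorticoids, rose in Post-T against Ctrl, with 8, 2, 6, 10, 16 and 9 UMIs (log2 fold change 2.43, edgeR adjusted p = 0.0394), and its log2 fold change in the other kept nuclei was 3.33. Fcer1g, an ITAM adaptor, rose in both diet groups against Ctrl (pooled ratio 17.6, 95% exact counting interval 2.94 to 719, edgeR adjusted p = 0.0407) from 0 and 1 UMIs in Ctrl to 2, 20, 9 and 0 in the 4 diet mice, so the groups overlapped. Leaving out Ctrl 1, Ctrl 2 or Post-T 1 ended each of these 3 calls, with edgeR adjusted p of 0.102, 0.308 and 0.433 for Herpud1, 0.195, 0.729 and 0.128 for Fkbp5, and 0.917, 0.178 and 0.985 for Fcer1g. Without Pre-T 1 the p was 0.0618 for Herpud1 and 0.0776 for Fkbp5, without Pre-T 2 it was 0.0686 for Fkbp5 and 0.781 for Fcer1g, and without Post-T 2 it was 0.0695 for Fkbp5 (edgeR). Without Post-T 1, edgeR instead called Fcer1g higher in Pre-T against Ctrl, and Egr1, an immediate early gene with 12, 3, 1, 0, 3 and 0 UMIs, lower. With the replicate block, Herpud1, Fkbp5 and Fcer1g had edgeR adjusted p of 0.0642, 0.0705 and 0.0727. DESeq2 called none of these 3 genes.

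Interferon-stimulated and antigen presentation genes were higher in the Pre-T mice as lists, but no gene passed. The 28 interferon-stimulated genes in the files summed to 1471 and 1448 CPM in Ctrl, 2681 and 2214 in Pre-T, and 1168 and 1313 in Post-T. The same sum in other kept nuclei was 863 and 947, 1426 and 1616, and 999 and 984 CPM. In Post-T against Pre-T, 13 of 24 tested genes did not overlap between groups, all lower in Post-T, where 28% of all genes tested were, and the list's median log2 fold change was −1.35 beside −0.49 for all genes (−1.02 and −0.08 with genes at 0 set to their bound). Without Post-T 1 the medians were −2.35 and −1.98, or −0.29 and 0.00 with the bound, as 13 of the 24 genes were at 0 in 1 group. In Pre-T against Ctrl, 10 of 24 did not overlap and were higher, where 23.8% of all genes were, with a median of 0.62 beside 0.18 (0.56 and 0.13 with the bound). Trim30a, an interferon-induced TRIM protein, led with 18, 10, 50, 67, 9 and 6 UMIs (158, 137, 465, 459, 167 and 272 CPM). Its log2 fold change in Pre-T against Ctrl was 1.66 ± 0.58 (SE), with an edgeR adjusted p of 0.225, and it passed as higher once Post-T 1 was left out.

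The 21 antigen presentation genes summed to 1637 and 1558 CPM in Ctrl, 2588 and 3557 in Pre-T, and 1892 and 2400 in Post-T members. The other kept nuclei gave 698 and 712, 1333 and 2664, and 826 and 1083 CPM, so the order of the groups was alike in both kinds of nuclei. In Pre-T against Ctrl, 10 of 19 tested genes were higher without overlap (23.8% of all genes tested), with a median log2 fold change of 0.70 (0.64 with the bound). The Kupffer cell list in the same members had a median of 1.57, with 6 of 12 genes higher without overlap. Its gene C1qb, with 0, 0, 0, 25, 3 and 0 UMIs, was called higher, as was Lyz2 of the monocyte list, with 0, 1, 9, 32, 1 and 0 UMIs, whereas F13a1 of that list, with 23 UMIs in Ctrl 1 and 0 in each other mouse, was called lower in Pre-T and in both diet groups. The monocyte list as a whole summed to 1121 and 1175 CPM in Ctrl and 819 and 1165 CPM in Pre-T members. Without Post-T 1 the medians in Pre-T against Ctrl were 0.78 for antigen presentation (17 genes tested) and 1.95 for the Kupffer cell list (11 tested, C1qa and C1qb called higher). The part of macrophage RNA in the antigen presentation values was not tested. H2-D1, an MHC class I heavy chain, was at 123, 178, 400, 507, 297 and 136 CPM (log2 fold change 1.66 ± 0.58, edgeR adjusted p = 0.232). It passed once Post-T 1 was left out. B2m, the class I light chain, was at 201, 164, 335, 761, 241 and 725 CPM, and Cd74 at 193, 178, 261, 459, 92.7 and 45.3 CPM. Cd74 was 2.46 lower on the log2 scale in Post-T than in Pre-T, short of the threshold (edgeR adjusted p = 0.079).

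No change of the regulators of identity passed the test. The log2 fold changes of Irf8, Runx2 and Bcl11a were 0.14 ± 0.64, 0.42 ± 0.72 and 0.29 ± 0.65 (SE) in Pre-T against Ctrl. In Post-T against Pre-T they were −0.86 ± 0.67, −0.90 ± 0.73 and −0.45 ± 0.66, with edgeR adjusted p of 0.834, 0.834 and 0.884. Post-T 1 was the lowest mouse for each of the 3 genes, while Post-T 2 lay between Pre-T 2 and Pre-T 1 for each, so the lower values rest on Post-T 1. The median log2 fold change of the 12 genes in the regulator list, Zbtb46 included, was −0.43 in Post-T against Pre-T, and −0.32 without Post-T 1. Tlr7 in Pre-T against Ctrl was 1.27 ± 0.60 on the log2 scale (edgeR adjusted p = 0.611).

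Many genes called lower than in Ctrl were at a lower level in members than in other kept nuclei, as were 46.1% of all 11852 genes tested. Of those called lower they were 52 of 59 in Pre-T against Ctrl, 122 of 136 in Post-T against Ctrl and 149 of 166 in both diet groups against Ctrl, but 15 of 32 in Post-T against Pre-T. Of those called higher they were 4 of 24, 29 of 75, 14 of 38 and 16 of 32 in the same comparisons. In the median gene called lower, 42.0 to 43.6% of member UMIs came from members with at least 2 regulators, and in the median gene called higher 9.84 to 27.5%, both below the 65.4% of all member UMIs. Hal, the histidine-degrading enzyme of hepatocytes, had 36, 74, 2, 7, 0 and 0 UMIs and was at least 14.9-fold lower in Post-T than in Ctrl (edgeR adjusted p = 1.07e-07). Etnppl, an ethanolamine phosphate lyase, had 51, 63, 1, 2, 0 and 0, Hamp, the iron hormone hepcidin, 65, 58, 8, 111, 0 and 0, and Cyp2j5, a cytochrome P450, 57, 32, 15, 40, 0 and 0 UMIs. In Post-T against Ctrl they were at least 15.4-fold, 16.6-fold and 12-fold lower. With Post-T 2 alone, a library of 22080 member UMIs, the bounds fall to 4.32-fold for Hal, 4.48-fold for Etnppl, 4.83-fold for Hamp and 3.5-fold for Cyp2j5. In that fit, whose spread comes from the Ctrl and Pre-T mice, the edgeR adjusted p was 0.000982 for Hal, 0.000961 for Etnppl, 0.00113 for Hamp and 0.00459 for Cyp2j5. Gm36264 had 29 and 33 UMIs in the Ctrl mice and 0 in the 4 diet mice. Apoa4, an apolipoprotein of lipid-loaded liver, had 0, 0, 3, 35, 1 and 22 UMIs and was at least 9.37-fold higher in Pre-T and 18.9-fold higher in Post-T than in Ctrl. The Apoa4 calls rested on 1 mouse each, with edgeR adjusted p of 0.907 in Pre-T without Pre-T 2 and 0.611 in Post-T without Post-T 2, and the Pre-T call was also lost when Ctrl 1 (0.158) or Ctrl 2 (0.0565) was left out. In the other kept nuclei the log2 fold changes in Post-T against Ctrl were −9.17 for Hal, −7.80 for Etnppl, −9.75 for Hamp and 7.18 for Apoa4, the same direction as in members. From the hepatocyte list, 2, 8, 2 and 6 of 20 genes were called lower in the 4 comparisons, where 0.498%, 1.15%, 0.27% and 1.4% of all genes were. The counts were 4, 6, 2 and 6 without Post-T 1 and 1, 2, 0 and 2 with DESeq2. The part of hepatocyte RNA in these calls was not tested.

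Among genes called higher, single nuclei weighed heavily. One nucleus held over 50% of a gene's member UMIs for 13 of 24 genes called higher in Pre-T against Ctrl, 34 of 75 in Post-T against Ctrl, 19 of 32 in Post-T against Pre-T and 14 of 38 in both diet groups against Ctrl. For genes called lower it did so for 1 of 59, 0 of 136, 6 of 32 and 1 of 166, and for 3.32% of all genes tested. The globin Hbb-bs, with 6, 1, 12, 964, 32 and 2 UMIs, had 88.3% of them in 1 nucleus of Pre-T 2. Lef1, a Wnt effector, had 0, 0, 11, 0, 64 and 2 UMIs with 62.3% in 1 nucleus, and Wdr49, Ntng1 and Lhfpl3 (named after their values were seen) had all their UMIs in 1 nucleus each. Pparg, a regulator of lipid storage, had 1, 0, 29, 18, 65 and 2 UMIs with 34.8% in 1 nucleus and passed as higher in Post-T and in both diet groups against Ctrl, the former not without Post-T 1 (edgeR adjusted p = 0.544).

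**Figure D5:**
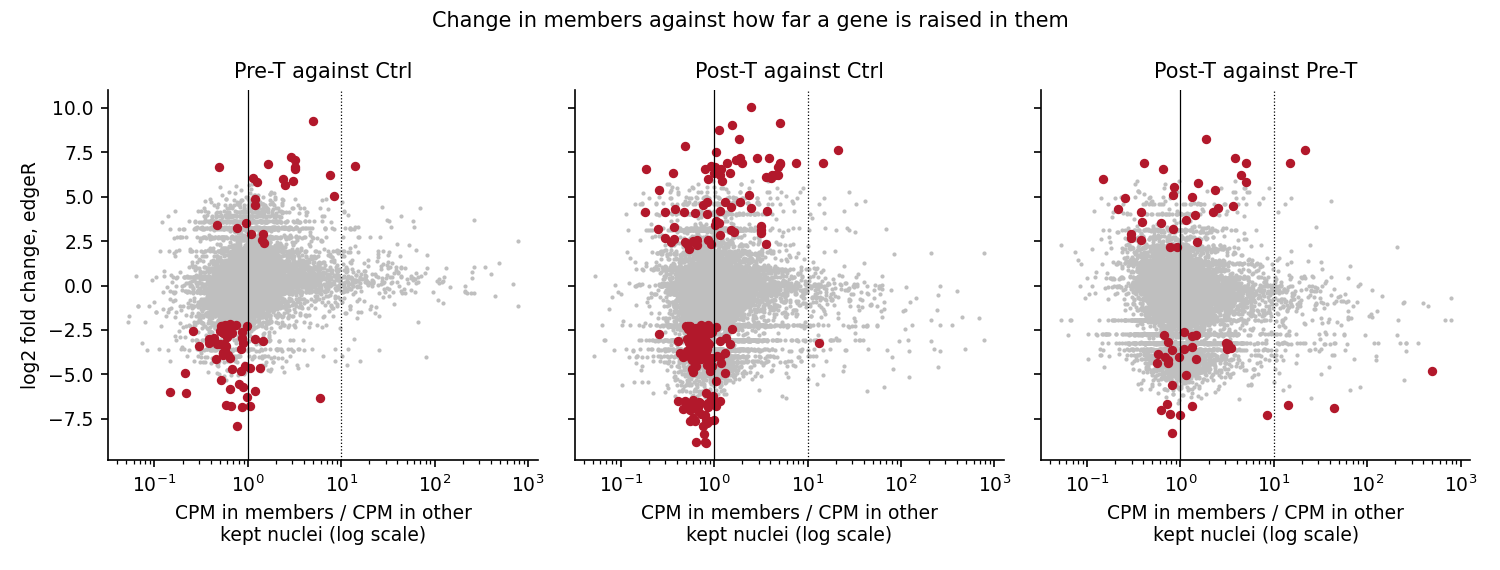
Each point is 1 of 11852 genes in pDC members, with the ratio of member CPM to CPM in other kept nuclei on a log axis and the edgeR log2 fold change of the named comparison on the vertical axis; red points had an adjusted p under 0.05, and lines mark ratios of 1 and 10. Red points below 0 cluster left of 1, where 122 of 136 lie in Post-T against Ctrl, and few red points lie right of 10, the farthest being Olfr164 at 489.

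A test of the difference between members and all other kept nuclei of the same libraries was run for each pair of groups. The change differed for 27 genes in Pre-T against Ctrl, 0.228% of those tested (3 higher in members relative to other nuclei, 0.0253%, and 24 lower, 0.202%). It differed for 21 in Post-T against Ctrl, 0.177% (11 higher, 0.0928%, and 10 lower, 0.0844%), and for 34 in Post-T against Pre-T, 0.287% (22 higher, 0.186%, and 12 lower, 0.101%). Set against other nuclei with a Ptprc UMI only, the split turned to 15 higher and 12 lower in Pre-T against Ctrl, and was 13 and 13 in Post-T against Ctrl and 15 and 12 in Post-T against Pre-T. Without Post-T 1 it was 11 and 55 in Post-T against Ctrl and 17 and 38 in Post-T against Pre-T. With RLE factors the share higher moved from 52.4% to 75% in Post-T against Ctrl and from 64.7% to 81.8% in Post-T against Pre-T. Among them, Klra17, a Ly49 receptor carried by pDCs, was at 219, 219, 279, 240, 538 and 362 CPM in members of the 6 mice, while other nuclei went from 1.74 and 2.05 CPM in Ctrl to 23.1 and 45.6 CPM in Pre-T (edgeR interaction adjusted p = 4.4e-08). Tyrobp, an ITAM adaptor, was at 140, 123, 279 and 233 CPM in Ctrl and Pre-T members and at 6.59, 5.61, 55 and 111 CPM in other nuclei (edgeR interaction adjusted p = 0.0072). As a ratio of Pre-T to Ctrl, both genes thus moved more in the summed other nuclei than in pDC nuclei. The make-up of the kept nuclei also changed. Those with a Ptprc UMI were 1081 of 7231 and 1083 of 7772 in Ctrl, and 2094 of 5407 and 3098 of 7846 in Pre-T. In the sum of other nuclei, more leukocyte nuclei cannot be told apart from a change within nuclei. Srgap3, a regulator of Rac signalling, was at 709, 547, 996 and 761 CPM in Ctrl and Pre-T members, and at 70.7, 24.2, 15.9 and 16.1 CPM in other nuclei (edgeR interaction adjusted p = 0.0199). Of the pathway lists, 3 of 23 surface and secreted genes were called by this test in Pre-T against Ctrl (Grm8, Lair1 and Ly6d). So were 1 of 13 ITAM genes (Tyrobp) and 1 of 12 migration genes (Ccr2), beside 0.228% of all genes. Grm8 was also called in Post-T against Ctrl and Cd83, of 19 antigen presentation genes, in Post-T against Pre-T. Except for Tyrobp, how these list calls depend on single mice is not given here. The interaction call of Klra17 was lost without Pre-T 2 (edgeR adjusted p = 0.0808), that of Tyrobp without Ctrl 1, Ctrl 2 or Pre-T 2 (1, 0.201 and 1), and that of Srgap3 without any single Ctrl or Pre-T mouse (0.21 to 1).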

How the data were processed

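The authors aligned reads of 10x droplet libraries of liver nuclei with Cell Ranger 6.1.1 to mm10 (per the submitters' processing notes) and deposited UMI counts per gene and barcode for each of 6 mice. Whether intronic reads were counted is not given in the sources used here. Counts were whole numbers, and 39012 of 41882 barcodes were kept (over 200 and under 5000 genes, under 5% mitochondrial UMIs).

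Members were picked nucleus by nucleus, with no clustering and no doublet caller. The members and lists were chosen with earlier results of these data known. Comparison nuclei, all outside the members, carried marker pairs: Pax5 (B cell), Skap1 (T cell), Clec4f (Kupffer), Flt3 (conventional dendritic cell), F13a1 (monocyte) or Stab2 or Ptprb (endothelial) with further markers of their list, or at least 8 of 20 hepatocyte genes. They numbered 694, 1329, 1964, 96, 182, 5955 and 26595. A nucleus had to meet 1 of the first 6 rules alone, and a hepatocyte nucleus none of them. That the hepatocyte rule did not remove nuclei of other classes was chosen after seeing the data, as was the count of members with at least 2 regulators.

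UMIs were summed per mouse and fitted in 1 model of 3 groups with edgeR 4.0.16 in R 4.3.3 (quasi-likelihood test, TMM, genes with at least 3 UMIs over the mice, Benjamini-Hochberg adjustment, biological coefficient of variation 0.368, 3 residual degrees of freedom). The difference from other nuclei was tested as an interaction with the mouse as a block. The 13 rule genes were left out of all counts of genes. Alternatives were DESeq2 1.42.0, RLE factors, other UMI minimums, a replicate block, only the groups compared, other member rules and leaving out each mouse. In simulated data, 200 genes drawn from those with at least 10 UMIs were changed, with the same biological coefficient of variation for all genes. The fit recovered 28.5%, 13.5%, 14.5% and 37.0% of them in the 4 comparisons and 45.0%, 25.0%, 25.0% and 54.0% of the 8-fold changes. Changes of rarer genes, and single nuclei that hold many UMIs of a gene, were not simulated. With 2 mice per group, p-values measure only the spread between these mice. Shares were compared with exact permutation tests under Python 3.11.15 (numpy 2.4.6, scipy 1.17.1, pandas 2.3.3, matplotlib 3.10.9).

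The genes named were the 25 with the highest ratio of members to other nuclei, up to 8 per direction and comparison with the largest change among called genes with at least 10 UMIs and no overlap between groups, the genes of each pathway list with the most UMIs and any called, and others said to be chosen after their values were seen. Results for some genes are not reported here.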

Additional observations from a re-analysis of the deposited data

Results flagged for a closer look

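For 23 results the change between groups differed between pDC members and all other kept nuclei of the same mice by edgeR's interaction test, with 2 mice per group. In Pre-T against Ctrl the adjusted p was 4.4e-08 for Klra17, 0.000118 for Cybb, 0.00147 for Rap1gap2, 0.0072 for Tyrobp, 0.0211 for Mpeg1 and 0.0447 for Kalrn, each relatively lower in members. Mpeg1, a pore-forming protein of phagocytes, was at 114, 82.0, 149 and 178 CPM in the members of Ctrl 1, Ctrl 2, Pre-T 1 and Pre-T 2 and at 6.51, 6.47, 48.5 and 106 CPM in other nuclei. Cybb, the catalytic chain of the phagocyte oxidase, was at 315, 287, 400 and 329 CPM in these members and at 15.2, 18.8, 116 and 163 CPM in other nuclei, so the members stayed within a narrow range. Bicc1 (adjusted p = 0.00147) and Rbms3 (0.0447) were relatively lower and Srgap3 (0.0199) relatively higher in Pre-T members. Bicc1, a gene of the cholangiocyte list, had 7, 19, 0, 1, 18 and 0 member UMIs, and all 19 of Ctrl 2 and all 18 of Post-T 1 lay in 1 nucleus each, without at least 2 regulators. Each of these 9 calls was lost when Pre-T 2 was left out (edgeR adjusted p of 0.0808 for Klra17 and 0.33 to 1 for the others), where 2 genes were called and 0 of them were relatively lower.

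In Post-T against Ctrl the interaction adjusted p was 0.000988 for Cybb, 0.00841 for Itgad, 0.011 for Klra17, 0.0155 for Gm48228, 0.031 for Mgll, 0.031 for Cd44 and 0.0329 for Epas1, relatively lower in members, and 0.022 for Cdk14, relatively higher. Epas1, a hypoxia-inducible factor high in endothelial cells, had 12, 8, 5, 15, 0 and 0 member UMIs, while other nuclei were at 183 and 205 CPM in Ctrl and 270 and 330 CPM in Post-T. Cdk14 had 10, 4, 30, 27, 55 and 6 member UMIs. All 8 were lost without Ctrl 1 (0.428 for Cdk14 and 0.982 for the others) and without Post-T 1 (0.0661 for Cdk14, to 0.908 for Klra17), which held 55 of the 61 Post-T UMIs of Cdk14. In Post-T against Pre-T it was 0.0152 for Epas1, 0.0347 for Smoc1, 0.0359 for Npc1, 0.0374 for Fam169b and 0.0413 for Gnmt, relatively lower in members, and 0.0200 for Meis2, relatively higher. Meis2 had 15, 9, 1, 2, 13 and 2 member UMIs. Without Post-T 1, Fam169b (edgeR adjusted p = 0.0163) and Npc1 (0.0451) were still called and the other 4 were not (0.13 to 0.896). All 6 were lost without Pre-T 1 (0.055 to 0.573) and without Pre-T 2 (0.491 to 0.828), all but Epas1 without Ctrl 1 (0.0965 to 0.108) and when Ctrl 2 was dropped (0.0678 to 0.127), and Fam169b without Post-T 2 (0.278). Epas1, Gm48228 and Mgll had 0 UMIs in both Post-T mice, whose members were the shallowest. How far free RNA, mixed nuclei or a changed make-up of the other nuclei enter these differences was not tested.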

How the results depend on the processing

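The mean share of pDC nuclei kept its order Pre-T, Ctrl, Post-T under all other member rules tried. After thinning to 500 UMIs, Ctrl 1 (0.498%) lay above Pre-T 1 (0.481%), so these groups then overlapped. Pre-T against Ctrl was then 0.162 points (exact permutation p = 0.667), and also 0.162 with at least 2 Siglech UMIs. Differences leaving out 1 mouse ran from 0.192 to 0.440 points (Pre-T against Ctrl), from −0.376 to −0.128 (Post-T against Ctrl) and from −0.647 to −0.489 (Post-T against Pre-T). Only the Ptprc denominator turned Pre-T against Ctrl to −0.605. The permutation p of each alternative was at or above 0.2. The difference of both diet groups from Ctrl, near 0, turned to −0.0309 with at least 2 Siglech UMIs, −0.00449 with at least 2 other markers, −0.0483 after thinning and −0.982 of Ptprc nuclei, and without 1 mouse it ran from −0.0922 (without Ctrl 2) to 0.156, with −0.0365 without Pre-T 1 and −0.0892 without Pre-T 2.

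Counts of called genes moved more. Leaving out 1 mouse gave 12 (without Pre-T 1) to 228 (without Post-T 2) genes in Pre-T against Ctrl and 67 (without Ctrl 1) to 298 (without Post-T 2) for Post-T set against Ctrl. It gave 13 (without Pre-T 2) to 212 (without Post-T 2) in Post-T against Pre-T and 68 (without Ctrl 2) to 311 (without Post-T 2) for both diet groups against Ctrl. In the same order DESeq2 gave 13, 40, 0 and 44. Fitting only the groups compared gave 224 genes in Pre-T against Ctrl and 41 in Post-T against Pre-T. A minimum of 10 UMIs gave 39 in Post-T against Pre-T, and members with at least 2 Siglech UMIs gave 79 in Post-T against Ctrl and 16 in Post-T against Pre-T. RLE factors in place of TMM changed Post-T against Pre-T from 32 higher and 32 lower to 49 and 27. Interaction counts for the first 3 comparisons leaving out 1 mouse ran 2 to 58, 5 to 82 and 8 to 95.

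The replicate numbers did not pair the mice, with correlations of deviations of −0.155 (Ctrl and Pre-T), −0.030 (Ctrl and Post-T) and 0.0975 (Pre-T and Post-T) over 2013 genes. Crossing the Ctrl numbers was chosen after seeing the data. With the replicate number as a block, 54, 147, 35 and 157 genes were called, and with the Ctrl numbers crossed 56, 149, 43 and 162. The interaction fits hold the mouse as a block, which contains the replicate block. Of the named genes, 92 results gave 821 tests under alternatives, of which 492 stayed past the threshold, 329 did not and 0 changed direction. Depth limits the Post-T group, with 25 members and 76001 UMIs.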
